A study of Mus musculus with 34 samples.

Results

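The mitochondrial carriers of the SLC25 family, with the uncoupling proteins Ucp1, Ucp2 and Ucp3 that belong to it, were followed in the liver of mouse pups whose thyroid hormone supply had been lowered, raised, or lowered and then replaced by injection. Members were all probes outside the array's controls whose RefSeq accession belongs to a symbol starting with Slc25a, or to Ucp1, Ucp2 or Ucp3. They came to 62 probes of 41174, for 43 genes of the 16531 that could be named. The family has 51 genes in the RefSeq table used, and 8 of them (Slc25a2, Slc25a15, Slc25a18, Slc25a34, Slc25a43, Slc25a53, Slc25a54 and the pseudogene Slc25a5-ps) were not analysed here. No measured value was used to choose a member. Slc25a45 had been picked out as a hormone target by the study on these same arrays, so that its response here is not independent evidence of that choice. The study also reported RT-qPCR and assays of receptor binding for this gene, which were not analysed here.

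All pups were C57BL/6 mice collected on postnatal day (PND) 15, and each of the 34 livers was hybridized to 1 array with Cy5 as its dye against a universal mouse reference RNA in Cy3. The control group (4 males, 4 females) had untreated dams and an injection of saline. The hypo group (4 males, 5 females) had dams drinking methimazole (MMI, 0.05%) and perchlorate (1%), agents that block hormone synthesis and iodide uptake, for 3 days, and the pups were injected with saline. The hyper group (5 males, 5 females) had untreated dams and received T4 at 50 μg and T3 at 5 μg for each 100 g of weight 4 hours before collection. The hypo+ group (4 males, 3 females) had the goitrogens of the hypo group and received T4 at 20 μg and T3 at 2 μg for each 100 g at the same time. By the study's methods, goitrogen-exposed pups with a high serum T4 after replacement were set apart as another group, so that the hypo+ pups were those with T4 near or slightly above control. Dosing of the dams means that littermates shared their exposure. The number of arrays in each group limits the precision of every value.

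SLC25 carriers are proteins of the inner mitochondrial membrane that exchange nucleotides, phosphate, organic acids, amino acids, acylcarnitines, cofactors and metal ions between matrix and cytosol. In the liver they connect mitochondria with urea synthesis, gluconeogenesis, fatty acid oxidation and the transfer of reducing equivalents. The uncoupling proteins are the branch of the family known for proton leak, Ucp1 being the heat-producing protein of brown fat. Thyroid hormones act through nuclear receptors that bind DNA at pairs of a hexamer half-site, usually given as AGGTCA, and many of their known hepatic target genes serve mitochondrial metabolism.

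The 250 bases before the gene start are shown for Slc25a45 and Slc25a30, the top members in the order by response described below. They were chosen because their fold changes had the same sign as each other in each comparison. Those of Slc25a30 did not pass within a sex with all pups and no block. The sequences are those of RefSeq on GRCm38.p6, written 5′ to 3′ on the strand of the gene, at chr19:5877572-5877821 (+) for Slc25a45 and chr14:75787038-75787287 (-) for Slc25a30. Capitals mark the hexamer AGGTCA.
Slc25a45: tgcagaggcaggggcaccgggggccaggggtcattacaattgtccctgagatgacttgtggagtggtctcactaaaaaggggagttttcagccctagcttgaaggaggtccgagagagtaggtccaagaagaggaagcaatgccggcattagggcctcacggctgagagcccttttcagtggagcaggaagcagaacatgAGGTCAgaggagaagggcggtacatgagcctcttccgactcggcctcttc
Slc25a30: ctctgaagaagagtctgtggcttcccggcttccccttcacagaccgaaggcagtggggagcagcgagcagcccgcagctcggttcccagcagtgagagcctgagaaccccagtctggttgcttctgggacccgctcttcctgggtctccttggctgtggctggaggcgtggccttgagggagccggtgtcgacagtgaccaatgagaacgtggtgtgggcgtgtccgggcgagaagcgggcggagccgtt

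The hexamer began 50 bases before the start of Slc25a45, on the strand of the gene, and was not found in the window of Slc25a30. Over windows of 300 bases (250 before and 50 after the start), AGGTCA on either strand was present in 5340 of 32851 promoters (16.3%). Of the 41 promoters listed for 33 of the 43 members, 5 held it (12.2%), those of Slc25a45, Slc25a39, Slc25a47, Ucp1 and Ucp3. A match to a hexamer this short is a description of the letters and not of a bound site. The element of Slc25a45 for which the study reported receptor binding lies farther upstream, outside this window, and its half-sites differ from AGGTCA.

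Hepatocyte markers were as the tissue label says. All 8 measured genes of a list headed by albumin (Alb) were well above background on every array, with a mean log2 ratio of pup to reference between 4.097 and 5.72. Median Cy5 signals lay between 146 and 199 on the 34 arrays. Of the member probes, 48 of 62 (77.4%) were well above background in Cy5 on all arrays, against 54.1% of all probes, and 36 of the 43 genes had such a probe. Ucp3, the uncoupling protein of skeletal muscle, and both probes of Slc25a40 were well above background on no array. Markers of other tissues stood apart in some pups, by more than 1 (log2) above the median of all arrays. Brown fat markers did so in male hypo pup 311 and female hyper pup 499, skeletal muscle markers in male hyper pup 498 and female hypo pup 721, and pancreatic acinar markers in male control pups 832 and 522, female control pup 831 and female hypo+ pup 543. Pups are given by their animal number. Fold changes without these 8 pups are given for Slc25a45, Slc25a30 and Ucp1. Those of the other genes include these pups, of which 832, 522 and 831 were controls.

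Slc25a45 was the 1 member that passed within a sex in the main fits, made with all pups of that sex and no block. Slc25a30 passed in females under some alternatives given below. Slc25a13, Slc25a29 and Slc25a30 also passed when both sexes were fitted together, as given below. Slc25a45 was lower in hypo than in control pups, and higher in hyper than in control and in hypo+ than in hypo pups, in both sexes, by 1.67- to 2.66-fold. Slc25a45 is placed by sequence with the carriers of basic amino acids and carnitine. It has 1 probe, well above background on all 34 arrays. All values given for it, and for every gene here, are log2 ratios of pup liver to reference RNA after loess normalization, and every fold change is a difference between group means of these ratios. In bulk liver RNA, a smaller share of cells of 1 type and less RNA per cell cannot be told apart.

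In males, the log2 ratio of Slc25a45 was 1.63, 1.05, 1.64 and 1.30 in the control pups and 0.47, 0.62, 0.74 and 0.67 in the hypo pups. It was 1.95, 2.24, 2.29, 2.18 and 2.15 in the hyper pups and 1.81, 2.17, 1.89 and 1.89 in the hypo+ pups. Every hypo male lay below every control male, and every hyper and hypo+ male lay above them, while the hyper and hypo+ ranges overlapped. In females, the log2 ratio was 1.18, 1.34, 1.66 and 1.23 in the controls and 0.44, 0.74, 0.50, 0.72 and 0.69 in the hypo pups. It was 2.08, 2.50, 2.26, 2.49 and 2.33 in the hyper pups and 2.16, 1.87 and 2.06 in the hypo+ pups. The females fell into the same order, with the same separation of hypo, control and hormone-injected pups.

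The group means of Slc25a45 in males were 1.40 ± 0.28 in control (SD, n = 4), 0.63 ± 0.11 in hypo (SD, n = 4), 2.16 ± 0.13 in hyper (SD, n = 5) and 1.94 ± 0.16 in hypo+ (SD, n = 4). In females they were 1.35 ± 0.22 in control (SD, n = 4), 0.62 ± 0.14 in hypo (SD, n = 5), 2.33 ± 0.17 in hyper (SD, n = 5) and 2.03 ± 0.15 in hypo+ (SD, n = 3). The spread between pups of 1 group was thus a fraction of the distance between groups.

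**Figure D1:**
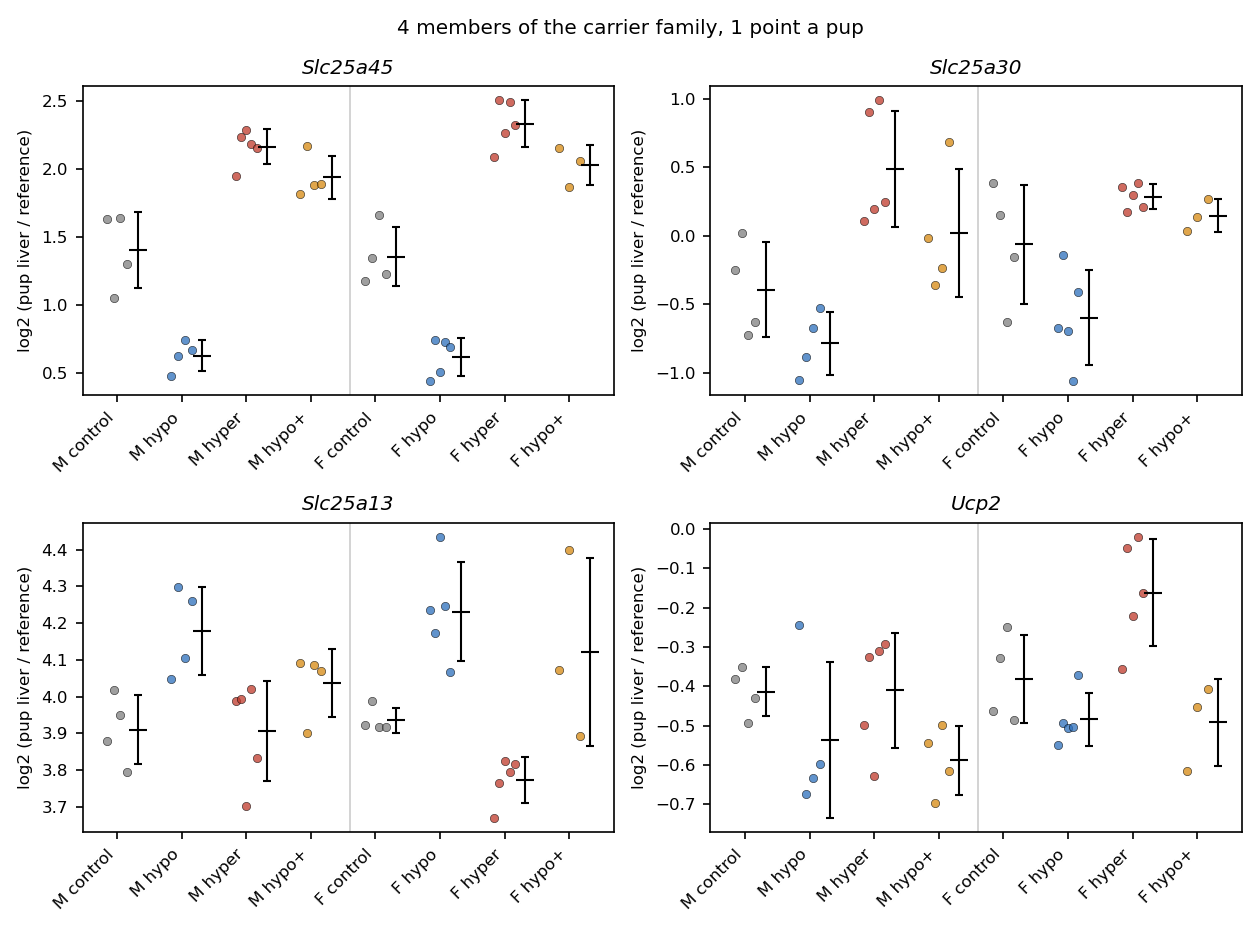
Log2 ratio of pup liver to reference RNA (y axis) for Slc25a45, Slc25a30, Slc25a13 and Ucp2 in the 8 groups (x axis, M males and F females); each point is 1 pup, and the bars give the group mean and SD. For Slc25a45 the hypo pups (0.44 to 0.74) lie below all controls (1.05 to 1.66), and the hyper and hypo+ pups (1.81 to 2.50) above them, whereas the groups of Ucp2 largely overlap.

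Among hypo males, Slc25a45 was lower than in controls by 0.78 ± 0.12 on the log2 scale (SE, limma adjusted p = 0.0164 by Benjamini-Hochberg over all probes), and it was the 1 member probe of 62 that passed. Of all probes, 0.0971% passed in that comparison. Among hypo females the fold change was -0.74 ± 0.11 (SE, limma adjusted p = 0.00862), again for this probe alone among the members, where 0.155% of all probes passed.

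In hyper males, Slc25a45 rose by 0.76 ± 0.11 (SE, limma adjusted p = 0.0128), the 1 member probe to pass beside 0.0753% of all probes. In hyper females it rose by 0.98 ± 0.11 (SE, limma adjusted p = 0.00107), the 1 member to pass beside 0.158% of all probes. Within the goitrogen-exposed pups, the injection was followed by the largest difference. Slc25a45 was higher in hypo+ than in hypo males by 1.32 ± 0.12 (SE, limma adjusted p = 4.99e-05) and in females by 1.41 ± 0.12 (SE, limma adjusted p = 1.46e-05). It was the 1 member probe to pass in each sex, where 0.369% of all probes passed in males and 0.556% in females.

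Against control, the hypo+ pups did not pass within a sex here, whereas the study, with its own statistic, called Slc25a45 in both sexes. The log2 fold change of Slc25a45 was 0.54 ± 0.12 in males (SE, limma adjusted p = 0.229) and 0.67 ± 0.12 in females (SE, limma adjusted p = 0.116), although no hypo+ pup of either sex overlapped with its controls. No member probe passed in these comparisons after adjustment, beside 0.0267% of all probes in males and 0.0219% in females. At an unadjusted p under 0.05, 6 of 62 member probes passed in males, where 7.56% of all probes did, and 1 of 62 in females, where 4.79% did. Hypo, hyper and hypo+ were compared with the same controls, and hypo pups enter 2 of the 4 comparisons of each sex, so the comparisons are not independent of each other.

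The male calls of Slc25a45 against control changed when single pups were left out. Without male hypo pup 311, in which brown fat markers stood apart, the hypo value was -0.73 (adjusted p = 0.0809, limma). Without male control pup 832 or 391 it was -0.70 in each case (adjusted p = 0.0573 and 0.0625, limma), and without male control pup 881 the hyper value was 0.73 (adjusted p = 0.0621, limma). Without the pups of either sex whose tissue markers stood apart, a setting chosen after seeing the data, the male log2 fold change was -0.79 in hypo (adjusted p = 0.133, limma), 0.75 in hyper (adjusted p = 0.0971, limma) and 1.26 in hypo+ against hypo (adjusted p = 0.000109, limma). In females the values without such pups were -0.60 (adjusted p = 0.0232), 1.15 (adjusted p = 0.000612) and 1.32 (adjusted p = 0.000182, limma), all past the threshold. The male sizes thus stayed close to those with all pups, in a setting that left out 832 and 522 of the 4 control males. In females the hypo value moved from -0.74 to -0.60 and the hyper value from 0.98 to 1.15.

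The arrays lay on 11 slides scanned in 6 batches, and most slides held pups of 1 sex from several groups, which allowed Slc25a45 to be compared within slides. The hypo pup was below the control in 7 of 7 pairs on the same slide, by a log2 difference of -1.16 to -0.49. The hyper pup was above the control in 8 of 8 pairs (0.55 to 1.26). The hypo+ pup was above the control in 5 of 5 pairs (0.25 to 1.12), and above the hypo pup in 4 of 4 pairs (1.27 to 1.70). Within scan batches the differences of the same 4 comparisons kept these directions in both sexes, with hypo against control between -1.16 and -0.49 and hypo+ against hypo between 1.13 and 1.70. Fitted as a fixed block, however, the slide or the scan batch ended the male hypo call, at -0.80 and -0.81 (adjusted p = 0.0530 and 0.0524, limma).

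When both sexes were fitted together, with the litter inferred from the animal number as a random block, Slc25a45 passed in all 4 comparisons. Its log2 fold changes were -0.76 in hypo (adjusted p = 2.74e-06), 0.87 in hyper (adjusted p = 1.17e-07), 0.61 in hypo+ (adjusted p = 0.000456) and 1.36 in hypo+ against hypo (adjusted p = 1.23e-11, limma). More probes passed in this fit. They were 0.95% of all probes in hypo, 0.692% in hyper, 0.588% in hypo+ and 2.72% in hypo+ against hypo, against 2, 1, 1 and 3 of the 62 member probes.

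The members were ordered by their response, taken as limma's moderated F over the 3 treatments against control, averaged over the sexes, at the brightest probe of each gene. Slc25a45 came first with 89.4 and took the third place among all 41174 probes. Slc25a30 followed with 10.8 and Slc25a13 with 8.84, and then Ucp2 (5.66), Slc25a42 (5.55), Slc25a22 (5.26), Slc25a37 (5.09), Slc25a35 (4.67), Slc25a21 (4.08), Slc25a29 (3.83), Slc25a51 (3.62) and Slc25a44 (3.27). The median was 1.43 over the 43 genes and 0.919 over all probes, which were less often well above background, and the part of this was not tested. The group means of 40 of the 43 genes lay within a range of 0.5 (log2) in both sexes, the others being Slc25a45, Slc25a30 and Ucp1. The order describes sizes relative to the spread and carries no test of its own.

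**Figure D2:**
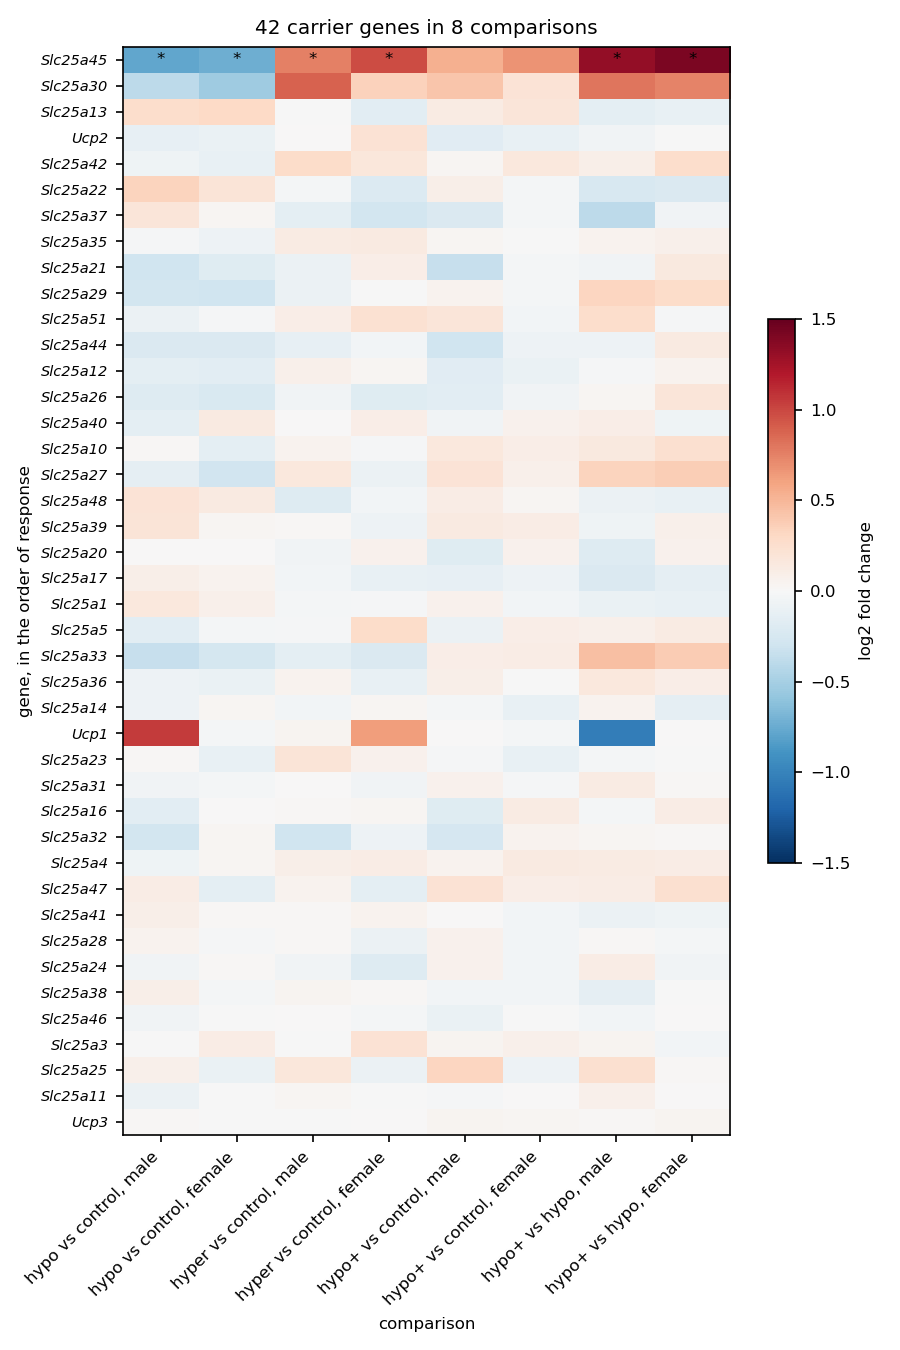
Log2 fold change (colour, red higher and blue lower) of 42 of the 43 carrier genes (rows, in the order of response) in the 4 comparisons of each sex (columns), each at its brightest probe; an asterisk marks an adjusted p under 0.05. The 6 asterisks all lie on Slc25a45, while the strong colours of Ucp1 come from single pups.

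Among the uncoupling proteins and their close relatives, Slc25a30 had the second place in the order. It encodes kidney mitochondrial carrier protein, a relative of the uncoupling proteins. In males, its log2 ratio was -0.25, 0.02, -0.72 and -0.63 in controls, -1.05, -0.88, -0.68 and -0.53 in hypo, 0.10, 0.90, 0.20, 0.99 and 0.24 in hyper and -0.02, -0.36, -0.23 and 0.68 in hypo+ pups. The female values were 0.38, 0.15, -0.63 and -0.16 in controls, -0.67, -0.14, -0.70, -1.06 and -0.41 in hypo, 0.35, 0.18, 0.29, 0.39 and 0.21 in hyper and 0.03, 0.14 and 0.27 in hypo+ pups. The controls ranged widely and overlapped with the hypo pups in both sexes, but every hypo+ pup lay above every hypo pup of its sex. Groups this small can separate by chance, and the share of all probes that did so is not given here. The same holds for the separations named for the genes that follow.

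The log2 fold change of Slc25a30 between hypo+ and hypo was 0.80 ± 0.24 in males (SE, limma adjusted p = 0.241) and 0.74 ± 0.19 in females (SE, limma adjusted p = 0.120). In hyper against control it was 0.88 ± 0.23 in males (SE, limma adjusted p = 0.428) and 0.35 ± 0.18 in females (SE, limma adjusted p = 0.852). The female hyper value was 0.16 without control pup 831. In hypo the fold change of Slc25a30 was -0.39 ± 0.24 in males (SE, limma adjusted p = 1.00) and -0.53 ± 0.18 in females (SE, limma adjusted p = 0.592), with ranges of -0.50 to -0.25 and -0.72 to -0.38 when 1 pup was left out. In hypo+ against control it was 0.41 in males and 0.21 in females (adjusted p = 0.767 and 1.00, limma). None of its comparisons passed within a sex in the main fits. In the fit of both sexes, hypo+ against hypo passed for Slc25a30, at 0.77 ± 0.17 (SE, limma adjusted p = 0.00605). With the slide as a random block the female value was 0.80 (adjusted p = 0.0483, limma), and without female control pup 831, in which acinar markers stood apart, it was 0.74 (adjusted p = 0.0487, limma). Without all pups whose tissue markers stood apart, it was 0.71 in males (adjusted p = 0.452) and 0.78 in females (adjusted p = 0.156, limma).

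A dimmer probe of Slc25a30, well above background on 23 of 34 arrays, gave 0.15 ± 0.10 in males and 0.18 ± 0.09 in females (SE) for hypo+ against hypo, the same direction with a smaller size. A probe for AK159732, which the study's tables name Slc25a30, lies outside the members because it has no RefSeq accession. Those tables hold genes with an FDR-adjusted p under 0.05 in at least 1 condition by the study's own statistic. For hypo+ against hypo the probe gave 1.14 ± 0.28 in males (SE, limma adjusted p = 0.110) and 0.85 ± 0.23 in females (SE, limma adjusted p = 0.154). Its log2 ratio was 0.15 to 0.98 in hyper and -0.91 to 0.05 in control males. In females the hyper pups (0.10 to 0.38) overlapped with the controls (-0.81 to 0.57). Within slides, hypo+ was above hypo for Slc25a30 in 4 of 4 pairs (0.65 to 1.33), and hyper was above control in 7 of 8 (-0.03 to 1.71). The hypo pup was below the control in 5 of 7 pairs (-1.21 to 0.10), and the hypo+ pup above it in 4 of 5 (-0.38 to 0.93).

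Ucp2 is the uncoupling protein of wide tissue distribution, found in liver mostly outside hepatocytes under normal conditions. Its log2 ratio was -0.38, -0.35, -0.49 and -0.43 in control and -0.50, -0.32, -0.63, -0.31 and -0.29 in hyper males. In females it was -0.46, -0.33, -0.25 and -0.49 in control and -0.36, -0.05, -0.22, -0.02 and -0.16 in hyper pups. The hyper females tended to the upper end but overlapped with their controls. The log2 fold change in hyper was 0.22 ± 0.07 in females (SE, limma adjusted p = 0.503) and 0.00 ± 0.09 in males (SE, limma adjusted p = 1.00). The other 2 probes of Ucp2, well above background on 13 and 33 of the 34 arrays, gave 0.03 and 0.14 for hyper females. In hypo+ males its log2 ratio was -0.54, -0.70, -0.50 and -0.61, below every control male, with a fold change of -0.17 ± 0.09 (SE, limma adjusted p = 0.715). The hypo+ value was -0.11 ± 0.08 in females (SE, limma adjusted p = 1.00) and -0.14 ± 0.06 in the fit of both sexes (SE, limma adjusted p = 0.434). In that fit each of the other 2 probes gave -0.07 for hypo+ against control. At the one well above background on 33 arrays, the female minus male difference was 0.28 ± 0.17 (SE).

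Ucp1 was not well above background on 31 of the 34 arrays, and the exceptions were single pups. Its log2 ratio was 4.30 in male hypo pup 311, with a Cy5 signal of 1933, and 3.39 in female hyper pup 499, with a signal of 920.5. The third was female hypo pup 721, with 0.26 and a signal near background. In the 32 pups other than 311 and 499 the log2 ratio lay between -0.14 and 0.26 and the signal between 82 and 100. The same pair of pups stood apart in other fat genes. The log2 ratio of Cidea, a lipid droplet protein of brown fat, was 3.99 in pup 311 and 3.30 in pup 499 against 0.08 to 1.14 in the others. Adiponectin (Adipoq), made by fat cells in general, was at 2.30 and 1.65 against -0.32 to 0.42, and the lipid droplet protein Plin1 at 1.42 and 0.91 against -0.11 to 0.19.

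Cox8b, a subunit of cytochrome c oxidase in muscle and brown fat, was at 2.84 and 2.35, but also at 2.34 in female hypo pup 721. The other 4 of the 8 measured markers were within the range of the other pups in that pair. Prdm16 was at 0.76 and 0.95, against 0.49 to 1.503 in the others, and Dio2 at -0.37 and -0.16 against -0.46 to -0.10. Elovl3 was at -0.22 and 0.68 against -0.51 to 1.49, and Fabp4 at 4.54 and 4.33 against 3.85 to 5.21. The mean of the 8 measured markers was 1.91 in pup 311 and 1.75 in pup 499. In the remaining hypo males it lay between 0.56 and 0.67, and its median was 0.72 over all arrays. The part of fat in the Ucp1 values was not tested by a separate measurement. The pups with high Ucp1 came from different treatments, and without the pups whose markers stood apart the log2 fold change of Ucp1 in the 8 comparisons lay between -0.11 and 0.09. With all pups it had been 1.05 ± 0.66 in hypo males (SE, limma adjusted p = 1.00).

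**Figure D3:**
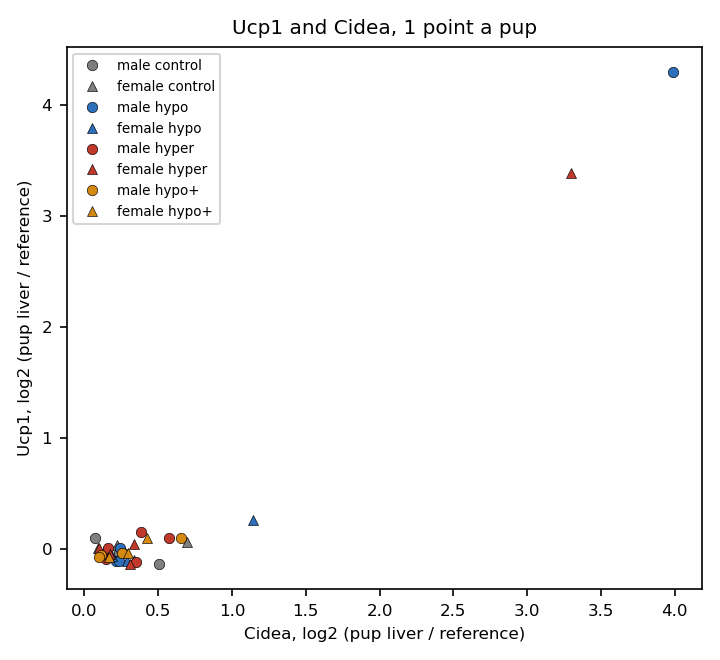
Log2 ratio of pup liver to reference for Cidea (x axis) and Ucp1 (y axis), 1 point a pup, coloured by treatment with circles for males and triangles for females. Male hypo pup 311 (3.99, 4.30) and female hyper pup 499 (3.30, 3.39) lie far from the other 32 pups, whose Ucp1 stays between -0.14 and 0.26.

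Of the 6 genes of this branch, none passed within a sex besides the fits given above. The remaining relatives, Slc25a14 and Slc25a27, brain mitochondrial carriers, had log2 fold changes that did not pass, with 0.34 in males and 0.37 in females for Slc25a27 in hypo+ against hypo (unadjusted p under 0.05 in both). These values are from its brightest probe, well above background on all 34 arrays, and its other probes gave smaller ones, from 0.06 to 0.15. The median fold change of the 6 genes lay between -0.10 and 0.13 in the 8 comparisons.

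The amino acid and carnitine carriers, 10 genes with Slc25a45 among them, held the member next in the order. Slc25a13 encodes citrin, the aspartate-glutamate carrier of liver, which serves the urea cycle and the malate-aspartate shuttle. In males, its log2 ratio was 3.88, 4.02, 3.95 and 3.80 in controls and 4.05, 4.30, 4.11 and 4.26 in hypo pups. The female ratios were 3.92, 3.99, 3.92 and 3.92 in controls and 4.24, 4.17, 4.44, 4.25 and 4.07 in hypo pups. Every hypo pup lay above every control of its sex, though by small margins. Groups of so few pups can separate by chance, and the share of all probes that did so is not given here. The same limit applies to every separation named for a gene that did not pass.

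The log2 fold change of Slc25a13 in hypo was 0.27 ± 0.08 in males (SE, limma adjusted p = 0.504) and 0.30 ± 0.08 in females (SE, limma adjusted p = 0.373). It passed in the fit of both sexes, at 0.28 ± 0.06 (SE, limma adjusted p = 0.0139). Within slides, the hypo pup was above the control in 7 of 7 pairs (0.03 to 0.52). In hyper the fold change was 0.00 in males and -0.16 in females, and no hyper female overlapped with the female controls. The direction in hypo was thus opposite to that of Slc25a45.

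Slc25a29, a carrier of basic amino acids, was lower in hypo by 0.27 ± 0.12 in males and 0.30 ± 0.10 in females (SE, limma adjusted p = 0.883 and 0.567), and its hypo+ against hypo values were 0.32 ± 0.12 and 0.28 ± 0.11 (SE, limma adjusted p = 0.353 and 0.463). In the fit of both sexes the latter passed, at 0.30 ± 0.08 (SE, limma adjusted p = 0.0482). A second probe of Slc25a29 agreed in sign in all of these, with 0.17 and 0.22 for hypo+ against hypo.

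Slc25a22, a mitochondrial glutamate carrier, was at 2.62, 2.65, 2.76 and 2.53 in hypo and 2.44, 2.22, 2.49 and 2.10 in control males, without overlap, but its fold change of 0.33 ± 0.09 did not pass (SE, limma adjusted p = 0.374). The female value was 0.19 ± 0.13 (SE, limma adjusted p = 1.00). Slc25a44, a carrier of branched-chain amino acids, had fold changes of -0.22 in hypo pups of both sexes and -0.30 in hypo+ males (adjusted p = 0.405, limma). Slc25a20, which brings acylcarnitines into the matrix for fatty acid oxidation, had -0.18 ± 0.07 in hypo+ males (SE, limma adjusted p = 0.522) and 0.06 ± 0.10 in hypo+ females (SE, limma adjusted p = 1.00). Slc25a47, a liver-enriched carrier, stayed between -0.15 and 0.24 in all 8 comparisons. Over the 10 genes of the group the median fold change lay between -0.09 and 0.07, and the member called within a sex was Slc25a45 each time.

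Among the 5 carriers of di- and tricarboxylates and keto acids, no gene passed in any comparison. Slc25a1, the citrate carrier that supplies cytosolic acetyl-CoA, had fold changes between -0.12 and 0.16. Slc25a10, the dicarboxylate carrier, was higher in hypo+ than in hypo females by 0.24 ± 0.08 without overlap (SE, limma adjusted p = 0.266), beside 0.14 ± 0.09 in males (SE, limma adjusted p = 0.694). Slc25a21, the oxoadipate carrier of lysine and tryptophan breakdown, was at -0.30 in hypo and -0.35 in hypo+ males (adjusted p = 0.556 and 0.389, limma), and at -0.18 and -0.03 in females. Slc25a35 had 0.13 in hyper pups of both sexes (adjusted p = 1.00 and 0.723, limma), at a probe well above background on 26 of 34 arrays.

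The cofactor carriers (6 genes) had no call either. Slc25a42, which imports coenzyme A, was at 1.08, 0.87, 0.84, 1.17 and 1.23 in hyper and 0.75, 0.68, 0.82 and 0.82 in control males, without overlap. Its fold change was 0.27 ± 0.08 in males and 0.17 ± 0.10 in females (SE, limma adjusted p = 0.733 and 0.878). Slc25a51, the importer of NAD+, had 0.22 ± 0.08 in hyper females and 0.10 ± 0.10 in hyper males (SE, limma adjusted p = 0.590 and 1.00). In hypo males all 6 genes had a negative fold change, with a median of -0.12, and in hypo females 4 of 6 had, with a median of -0.07. The median of all probes was 0.00 in both.

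The 11 nucleotide and phosphate carriers, which include the adenine nucleotide exchangers of oxidative phosphorylation, had no call. Slc25a4 (ANT1) stayed between -0.06 and 0.14 in the 8 comparisons, and Slc25a5 (ANT2) between -0.16 and 0.27. Slc25a25, a calcium-dependent carrier of ATP and phosphate, varied more between pups, with standard errors between 0.20 and 0.24, and its largest fold change was 0.32 in hypo+ males (adjusted p = 0.846, limma). At its other 2 probes this value was 0.16 and 0.30. The range over the group was -0.35 to 0.45.

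Among the 5 carriers of iron, glutathione and other substrates, Slc25a37 had the highest response. It encodes mitoferrin 1, the iron importer of erythroid mitochondria, and the liver of young pups still holds erythroid cells. Its log2 ratio was -0.85, -0.88, -0.85 and -0.84 in hypo and -1.34, -1.25, -1.31 and -1.11 in hypo+ males, without overlap. The fold change was -0.40 ± 0.10 in males (SE, limma adjusted p = 0.116) and -0.06 ± 0.12 in females (SE, limma adjusted p = 0.978). A second probe gave 0.01 in males and 0.05 in females, so that the probes disagreed. The mean of 10 erythroid markers, none of which passed, ranged from 1.84 to 1.98 in hypo and from 1.68 to 2.03 in hypo+ males, and its part in the Slc25a37 value was not tested.

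Over the 62 member probes together, the shares that passed an unadjusted p under 0.05 were above those of all probes in 7 of the 8 comparisons. In hypo they were 9 in males and 10 in females, or 14.5% and 16.1%, beside 5.19% and 4.72% of all probes. In hyper they were 5 and 6 (8.06% and 9.68%) beside 2.98% and 6.15%. In hypo+ against hypo they were 10 and 8 (16.1% and 12.9%) beside 9.18% and 7.76%. Several of these probes measured the same gene, and member probes were more often well above background than probes at large, and the part of this in the shares was not tested.

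Most members moved little. The median fold change of the 43 genes lay between -0.06 and 0.03 in the 8 comparisons, beside medians between -0.01 and 0.00 for all probes. Between 34 and 42 of the 43 genes stayed within 0.25 of no change, while 92.7% to 97.6% of all probes did. The fewest were 34 of 43 in hypo males, where 95.6% of all probes did. The most were 42 of 43 in hypo+ against control females, where 95.8% did. In every comparison but the latter, the share of the genes within 0.25 was smaller than that of all probes. The genes were taken at their brightest probe, and 77.4% of member probes but 54.1% of all probes were well above background on all arrays. The part of this in the shares was not tested. The sizes of change in males and females are set against each other below for the goitrogen effect and for the hormone injection.

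**Figure D4:**
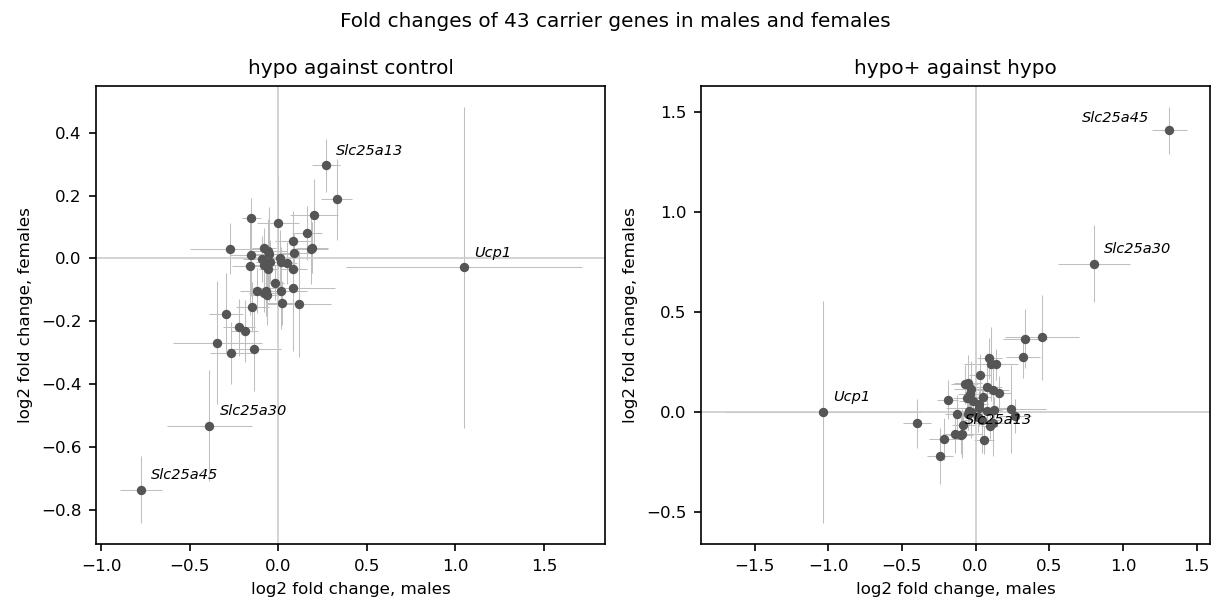
Log2 fold change in males (x axis) against females (y axis) of the 43 carrier genes, for hypo against control (left) and hypo+ against hypo (right), with standard errors as thin bars. Apart from Ucp1, Slc25a45 lies farthest from 0 in both sexes (-0.78 and -0.74 on the left, 1.32 and 1.41 on the right), and Slc25a30 is next on the right (0.80 and 0.74). Ucp1 leaves the rest in males alone, at 1.05 on the left, farther from 0 than Slc25a45, and at -1.04 on the right.

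A difference in response between the sexes was tested for each member in 1 fit of the 8 groups, with no block for litter. No member and no other probe passed in any of the 4 comparisons after adjustment (lowest adjusted p = 1.00 to 3 digits, limma). For an unadjusted p under 0.05, the share of all probes is not given here, so the member counts have nothing to be set against. Of the 62 member probes, 1 passed at that level for hypo, 3 for hypo+ against hypo, and 0 for hyper and for hypo+ against control. The lowest was Slc25a40 in hypo, with a female minus male difference of 0.28 ± 0.08 (SE, limma adjusted p = 1.00), but this probe was well above background on no array.

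Outside the family, 26 of 28 listed genes of mitochondrial transport were measured, including the pyruvate carrier, the carnitine palmitoyltransferases and the calcium uniporter. Gpd2 was the one that passed. It encodes the mitochondrial glycerol-3-phosphate dehydrogenase, which passes reducing equivalents from cytosolic NADH to the respiratory chain and is a long-known target of thyroid hormone in liver. In males its log2 ratio was 1.01, 0.60, 0.56 and 0.52 in control, -0.45, -0.01, 0.03 and -0.07 in hypo and 0.50, 0.89, 0.62 and 1.37 in hypo+ pups. Among females the ratio was 0.65, 0.54, 0.41 and 0.43 in control, -0.86, -0.06, -0.15, -0.42 and -0.12 in hypo and 0.80, 1.12 and 1.01 in hypo+ pups. Hypo pups lay below controls and below hypo+ pups in both sexes, as they did for Slc25a45. The hypo+ pups lay above the controls in females but overlapped with them in males.

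The log2 fold change of Gpd2 in hypo was -0.83 ± 0.13 in females (SE, limma adjusted p = 0.0129) and -0.80 ± 0.17 in males (SE, limma adjusted p = 0.124). In hypo+ against hypo it was 0.97 ± 0.17 in males (SE, limma adjusted p = 0.0132) and 1.30 ± 0.14 in females (SE, limma adjusted p = 0.000215). The median over the 26 genes lay between -0.01 and 0.04 in the 8 comparisons.

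The response of Slc25a45 was recomputed under each alternative way of processing the arrays. Its direction was kept under all of them, in all 8 comparisons. In hyper females and in hypo+ against hypo females it passed under every alternative run. In the males and in hypo females, median centring in place of loess ended each of the calls, with adjusted p of 1.00 in hypo males, 0.877 in hypo females, 1.00 in hyper males and 0.0855 in hypo+ against hypo males, at log2 fold changes of -0.76, -0.55, 0.62 and 1.103. The male hypo call was lost under 8 of 13 settings in all, among them normexp background correction, the software's log ratio, Cy5 alone and a fit of only the 2 groups (adjusted p = 0.121, 0.0806, 0.122 and 0.156, limma). The male hyper call was lost under 6 of 13, and the female hypo call also under normexp (adjusted p = 0.0620, limma).

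**Figure D5:**
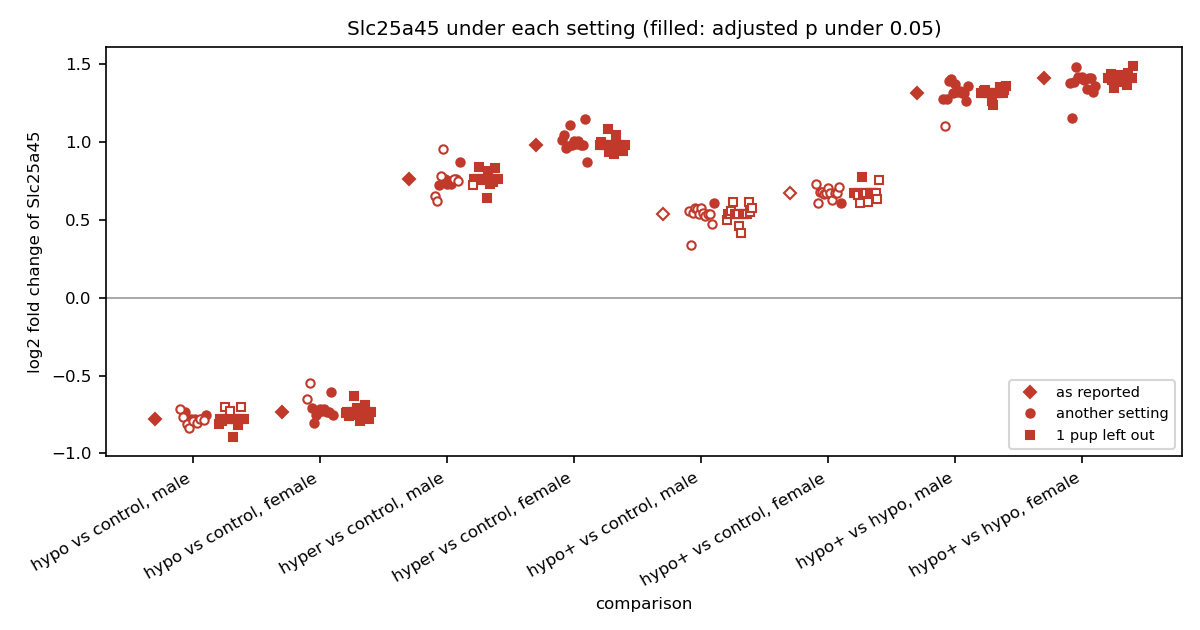
Log2 fold change of Slc25a45 (y axis) in the 8 comparisons (x axis) as reported (diamonds), under each alternative setting (circles) and with 1 pup left out at a time (squares); filled symbols have an adjusted p under 0.05. The values stay on 1 side of 0 throughout, from -0.90 to -0.55 in hypo against control and from 1.103 to 1.49 in hypo+ against hypo. Most symbols of hypo+ against control are open in both sexes, and in the other comparisons open symbols appear mainly in males.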

How the data were processed

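The starting values were the median intensities of the Cy5 and Cy3 channels in the scanner files that the authors deposited, with no background subtracted. A log10 ratio made by the scanner software stands beside them, per the file headers. The authors also deposited normalized log2 ratios, whose scale was inferred by comparing them with the scanner values. Their methods name loess normalization in MAANOVA, an Fs statistic with permutation p-values, and the removal of 2 outlier arrays of each sex, which were not analysed here.

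Control spots and spots marked as outliers were left out (77 to 212 of them per array). Log2 ratios were normalized by loess within arrays in limma 3.58.1 (R 4.3.3), and the spots of a probe were averaged. Systematic names (33541) were matched to RefSeq accessions, which gave 16802 a symbol. Each sex was fitted with its 4 groups (lmFit, eBayes) in place of the Fs statistic, and a probe was called at an adjusted p under 0.05 (Benjamini-Hochberg, 41174 probes). Replicates were separate pups, and the pups of different groups share no replicate number. The fit was tested on simulated data with 200 changed probes.

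A gene was represented by its brightest probe. Genes named were those called in any comparison, the 12 highest in the order of response, 15 genes of known hepatic or uncoupling role (14 of them measured), and those in which a pup lay far from its group by Dixon's gap test. Values of 1 member are not reported here by name, though it enters the counts and medians over the family. The members, the lists and this rule were chosen with earlier results of these data known. Marker lists covered hepatocytes, macrophages, erythroid cells, brown fat, skeletal muscle and pancreatic acinar cells, and none of their genes passed in any comparison. The means of the macrophage list ranged from 2.04 to 2.86 over all pups.

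Alternatives were normexp background correction (offset 50), median centring, the authors' values, the software's log ratio, Cy5 alone after quantile normalization, probes above the negative controls only, slide or scan batch as a block, only the 2 groups compared, both sexes with inferred litter as a random block, all probes of a gene averaged, each pup left out, and, chosen after seeing the data, the pups with outlying tissue markers left out.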

Additional observations from a re-analysis of the deposited data

Results flagged for a closer look

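Dixon's gap test for a single pup far from the others was run at the brightest probe of each of 42 of the 43 genes, in the 7 groups of 4 or 5 pups. Of 294 tests, 22 (7.48%) passed, where chance alone gives about 1 in 20. All values are log2 ratios of pup to reference.

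The widest gaps were those of Ucp1, at 4.30 in male hypo pup 311 (nearest other 0.01) and 3.39 in female hyper pup 499 (nearest 0.05). Ucp1 was also high in female hypo pup 721, by a small margin (0.26, nearest -0.01). Brown fat markers stood apart in pups 311 and 499 and skeletal muscle markers in pup 721, and their part in these values was not tested.

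Female hypo pup 575 was high in the phosphate carrier Slc25a3 (0.44, nearest -0.06), in Slc25a5 (1.16, nearest 0.64) and in Slc25a20 (3.06, nearest 2.84). Male control pup 881, whose omission ended the male hyper call of Slc25a45, was low in Slc25a5 (0.79, nearest 0.98) and in Slc25a20 (2.61, nearest 2.88). Male control pup 832 was high in Slc25a21 (1.54, nearest 1.40) and Slc25a4 (-1.18, nearest -1.32), and female control pup 831 in Slc25a10 (2.35, nearest 2.22), both with high acinar markers.

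Among hypo+ males, pup 546 was high in Slc25a10 (2.50, nearest 2.27) and in the ATP and phosphate carrier Slc25a24 (-3.14, nearest -3.60). Pup 454 was high in Slc25a1 (0.53, nearest 0.45) and low in Slc25a13 (3.90, nearest 4.07). Slc25a13 was also high in female control pup 523 (3.99, nearest 3.92).

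Slc25a38, a glycine carrier of heme synthesis, was high in female hyper pup 585 (1.70, nearest 1.40) and low in female hypo pup 721 (1.16, nearest 1.40). Slc25a48 was low in female hyper pup 621 (0.24, nearest 0.65). The aspartate-glutamate carrier Slc25a12 was high in male hyper pup 864 (-0.26, nearest -0.31). In Slc25a31, low in male control pup 522 (-0.0909, nearest 0.06), and Slc25a40, high in male hypo pup 891 (-0.26, nearest -0.41), the probe was not well above background in the pup concerned.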

How the results depend on the processing

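The number of member probes called in hypo males, 1 as reported (Slc25a45), was 0 under normexp, median centring, the software's log ratio, Cy5 alone, slide or scan batch as a fixed block, only the 2 groups compared, and without the pups with outlying tissue markers, the last chosen after seeing the data. In hyper males it was 0 under the same settings apart from the slide and the scan batch. In hypo females it was 0 under normexp and median centring, and in hypo+ against hypo males 0 under median centring. With both sexes in 1 fit it was 2 in hypo, 1 in hypo+ against control and 3 in hypo+ against hypo, where each sex alone had 1, 0 and 1, and with the slide as a random block it was 2 in hypo+ against hypo females. Leaving out 1 pup at a time gave 0 to 1 in hypo and hyper males and in hypo+ against control females, and 1 to 2 in hypo+ against hypo females. In the other comparisons the count was unaffected by the pup left out. Of the 12 genes highest in the order of response, 9 were shared under median centring and 11 with the authors' values, and Slc25a45 came first in both. The causes were not tested.

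Over 28 genes and 8 comparisons, no called fold change turned its direction among the 6696 values of the alternatives. 21 lost a call, all of them of Slc25a45 in males or hypo females, 11 gained one, and 129 of values not called moved by more than 1 SD between pups. No paired analysis was possible because the groups share no replicate numbers, though pups were compared within slides and with the slide or scan batch as a block. Few pups per group and dim probes (Ucp3, Slc25a40, most Ucp1 values) limit what can be seen of small changes.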
